A study of Mus musculus with 6 samples.

Results

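The regions described here are runs of adjoining distal fragments that HiCap joined to one and the same promoter fragment in mouse embryonic stem cells (mESCs). They were chosen by their own readout. A called pair was a promoter fragment and a distal fragment that the interaction lists of both HiCap replicates held, and at each promoter the called distal fragments that followed each other on the chromosome without a gap were joined. Runs of at least 4 fragments were kept, which gave 1060 runs out of 79166 single fragments and runs of any size. They held 5161 of the 94896 called pairs, or 5.44%. A run was found at 782 of the 15876 promoters with a call, which is 4.93%, and at 749 of the 12883 genes with a call, which is 5.81%. Since the lists themselves selected the runs, their numbers, lengths and positions are given as a description with no test.

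The cells were of the R1 line of mESCs, from which the study made 2 HiCap libraries as biological replicates and 2 Hi-C libraries without capture. The mESCs were untreated, were grown on gelatin in medium with serum and leukemia inhibitory factor, and were fixed with 1% formaldehyde before MboI cut the chromatin. R1 is a single established line, so the replicates are cultures of one genotype. The HiCap lists held 499746 distinct pairs in replicate 1 and 553977 in replicate 2, and the Hi-C list, in which both replicates were pooled, held 74807. None of the lists gives read numbers, so the depth behind a single pair is unknown.

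In the proximity ligation assays used here, pieces of DNA that lie close together in the fixed nucleus are ligated to each other, and the junctions are read by sequencing. Contacts fall off steeply with distance along the chromosome, so the neighbourhood of a promoter is contacted most. HiCap adds a pull-down of promoter fragments, which deepens the contacts of promoters, and a frequent cutter such as MboI divides an enhancer or a gene body into several fragments that can each be called on its own. A run is therefore a stretch of chromatin in which one restriction fragment after another was joined to the same promoter.

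The sequences below show what bounds a fragment and where a run stops. Each was read from the plus strand of mm9, 5′ to 3′, from one MboI site to the next, with the GATC recognition sequence in capitals. The first group are short fragments inside 5 of the largest runs, all in introns, and the second group are fragments that bordered a run and that neither replicate listed for its promoter.
Rara, chr11:98803264-98803407, in the run: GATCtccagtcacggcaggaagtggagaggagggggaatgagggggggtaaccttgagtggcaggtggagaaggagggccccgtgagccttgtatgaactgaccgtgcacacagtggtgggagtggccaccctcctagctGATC
Kdm6b, chr11:69223915-69224065, in the run: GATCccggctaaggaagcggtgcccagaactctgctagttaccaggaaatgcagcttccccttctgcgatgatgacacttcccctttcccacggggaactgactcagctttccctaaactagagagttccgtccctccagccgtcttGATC
Pgs1, chr11:117853369-117853537, in the run: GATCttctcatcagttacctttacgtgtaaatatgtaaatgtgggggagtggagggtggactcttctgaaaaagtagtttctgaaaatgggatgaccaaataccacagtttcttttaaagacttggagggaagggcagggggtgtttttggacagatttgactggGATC
Aoc3, chr11:101196813-101196918, in the run: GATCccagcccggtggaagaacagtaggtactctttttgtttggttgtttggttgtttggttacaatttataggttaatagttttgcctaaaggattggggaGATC
Ppp1ca, chr19:4198358-4198524, in the run: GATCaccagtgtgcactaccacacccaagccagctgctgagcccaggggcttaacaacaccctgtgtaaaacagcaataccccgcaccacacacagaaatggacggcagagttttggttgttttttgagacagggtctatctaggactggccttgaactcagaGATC
Pgs1, chr11:117850586-117850631, border towards the promoter: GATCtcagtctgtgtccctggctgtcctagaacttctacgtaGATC
Aoc3, chr11:101201033-101201165, border away from the promoter: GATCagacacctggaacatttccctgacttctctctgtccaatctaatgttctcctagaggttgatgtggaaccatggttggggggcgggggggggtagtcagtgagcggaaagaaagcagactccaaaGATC
Ppp1ca, chr19:4198521-4198548, border away from the promoter: GATCtgcctaccttttcttcccaaGATC
The last fragment of the Ppp1ca run measured 163 bp and was called in both replicates, while its neighbour of 24 bp, which shares the site between them, was listed in neither.

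Most runs were short. Of the 1060 runs, 616 (58.1%) held 4 fragments, 220 held 5, 104 held 6 and 58 held 7. Runs of 10 or more fragments numbered 19, and the largest held 16. At the threshold, the 616 runs of 4 had a median length of 2180 bp, and their pairs spanned a median of 5355.8 bp between midpoints. The 1850 stretches of 3 that were left out had 1728 bp and 5930.5 bp. The pairs of the least run and of the largest stretch below it thus spanned like distances.

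**Figure D1:**
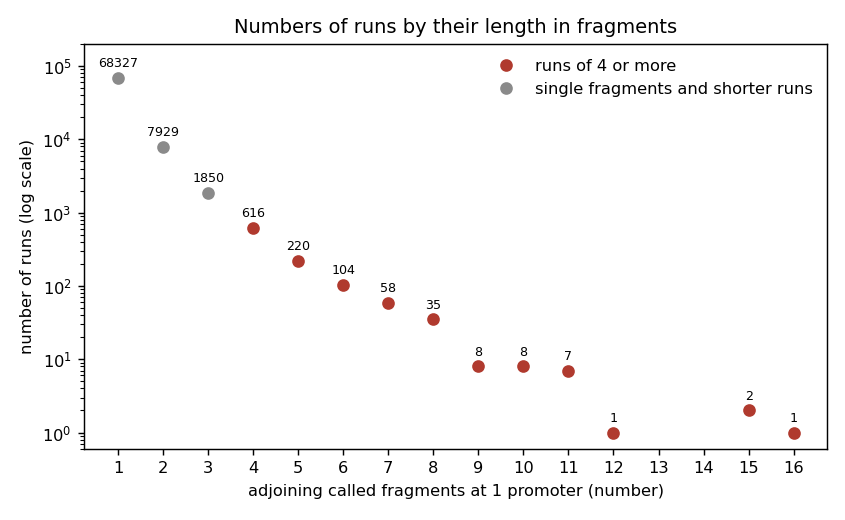
Number of stretches (log scale) by the number of adjoining called fragments at 1 promoter, with runs of 4 or more in red and shorter stretches in grey. Numbers fell at every step from 68327 single fragments to 616 runs of 4 and 8 runs of 9.

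A run covered between 512 and 10204 bp, with a median of 2524.5 bp and quartiles of 1904.2 and 3293 bp. A run lay close to its promoter, with its nearest edge at a median of 3322.5 bp and at less than 5 kb in 703 runs (66.3%). The edge was 10 kb or more away in 124 runs (11.7%) and 40 kb or more in 9. The pairs in runs spanned a median of 5297.5 bp between midpoints, against 10967 bp for the called pairs outside runs, and no pair of a run spanned more than 100 kb. A single MboI fragment made up 4995 (96.8%) of the distal fragments in runs, and the rest held several.

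Of the 782 promoters, 602 had 1 run, 121 had 2, 37 had 3 and 22 had 4 or more, up to 7. Runs lay on both sides of 108 promoters. For the 983 runs whose gene has 1 annotated strand, 555 lay downstream of the promoter and 428, or 43.5% (95% interval 40.4 to 46.7), upstream. The upstream share of pairs was 42.3% in runs and 48.1% outside them. Runs overlapped the body of their own gene in 430 cases (40.6%), only other genes in 356 (33.6%) and no annotated gene in 274 (25.8%). Genes were matched by name, and the annotation held 693 of the 749 genes with a run. Runs of the remaining genes could not count as lying in their own gene, so that share is a lower bound. No like counts for single fragments and shorter stretches are given, so these overlaps are not read as particular to runs. By bases, intergenic sequence made up 33% of the fragments in runs and 37.9% of the other called fragments.

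The largest run belonged to Rara, which encodes retinoic acid receptor alpha, a nuclear receptor that carries the retinoic acid signal. It held 16 fragments over 10204 bp (chr11:98803019-98813222), began 3564 bp from the promoter fragment and lay within the gene, 92.0% in introns. A further run of the same promoter held 11 fragments over 7384 bp and began 23914 bp away. In all, Rara had 9 runs at 2 promoter fragments. Counted per promoter these runs held 67 fragments, and the gene had 100 distinct called distal fragments. Fragments in runs of both promoters enter the first number more than once, so no share is given. Between them these runs tiled much of the stretch from 98790233 to 98834668, and several fragments were called from both promoters: the largest run of the first began at the base where a run of 6 fragments of the second began.

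Fasn, the fatty acid synthase gene, followed. The same stretch of 15 fragments and 8887 bp (chr11:120672935-120681821) was a run of 2 promoter fragments assigned to the gene, 2112 bp from one and 3365 bp from the other, and lay between them. Exons made up 52.3% of its bases. The run of 12 fragments at Kdm6b, which encodes a demethylase of histone H3 lysine 27, covered 5679 bp (chr11:69219430-69225108) and began 1853 bp downstream of the promoter fragment. It was one of 3 runs of the gene at 2 promoter fragments. Counted per promoter these runs held 24 fragments, and the gene had 47 distinct called fragments. The run of 6 fragments from the other promoter lay wholly within the run of 12.

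Runs of 11 fragments were found at 6 other genes beside the second Rara run. Caprin1 encodes an RNA-binding protein, and its run covered 6599 bp with 85.3% in exons. Irs1 encodes an adaptor of the insulin receptor, Pgs1 an enzyme of cardiolipin synthesis, Aoc3 an amine oxidase and Ncaph2 a subunit of condensin II. Their runs measured 6154, 6010, 5409 and 3520 bp, and that of RP23-234K24.9, which lay within the introns of BC046404, measured 4706 bp. Of the 10-fragment runs, those named by the rule belonged to Mbd6, to Ppp1ca, a catalytic subunit of protein phosphatase 1, to Eif4g2, a translation factor, and to Heatr7b1 and 6430706D22Rik. The last pair shared a single span of 7905 bp, 88.7% exonic, from opposite sides, at 1476 and 1794 bp. The Eif4g2 run of 3422 bp was exonic throughout.

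**Figure D2:**
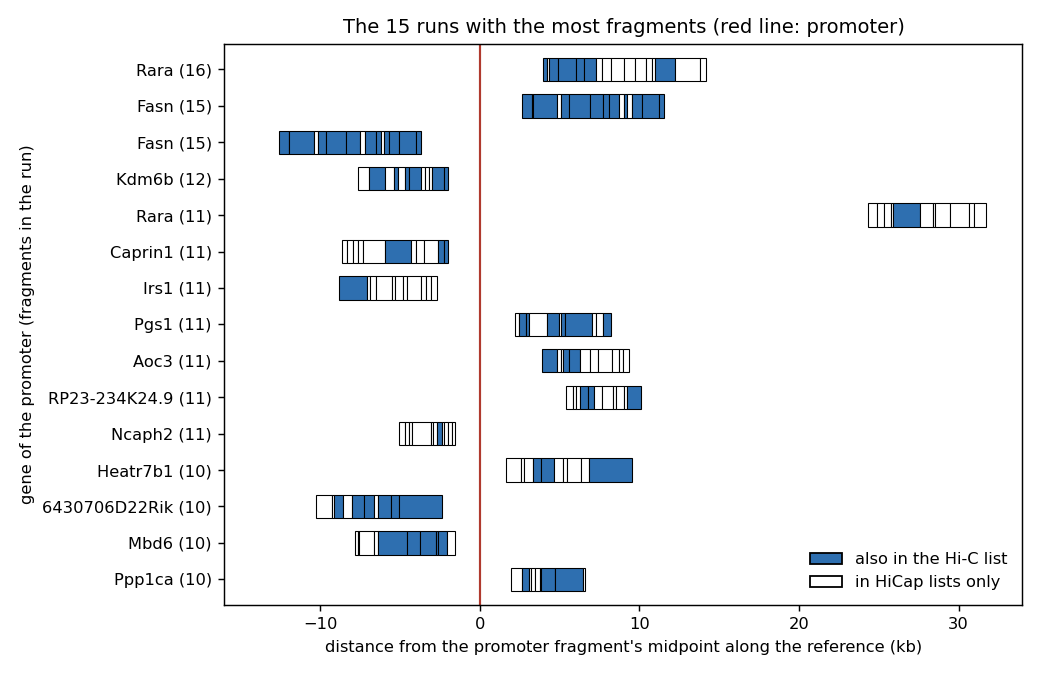
The 15 runs with the most fragments, drawn by distance in kb from the midpoint of the promoter fragment (red line, reference orientation), with 1 box per distal fragment to scale and blue boxes for pairs that the Hi-C list also held. All but the second Rara run, which began 23914 bp from its promoter fragment, lay within 15 kb, and the Fasn runs had the most blue boxes, 11 of 15 each.

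Length in bp and number of fragments did not rank the runs alike. Nr1d1, the gene of the circadian repressor REV-ERB alpha, had a run of only 4 fragments over 9375 bp, with one fragment of 5318 bp, and Naca, a chaperone of nascent chains, had 7 fragments over 7928 bp. Runs of 8 fragments could be far shorter, as at Rpl8 (1950 bp) and at the translation factor gene Eif1 (1813 bp).

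The run farthest from its promoter was that of Slc25a39, a mitochondrial carrier, whose nearest edge was 91578 bp away, in the body of Ubtf (chr11:102173185-102176709). Igfbp4, a binding protein of insulin-like growth factors, had a run of 4 fragments 79564 bp away in which Hi-C listed no fragment. The runs of Plcd4, LOC545261 and Neat1 lay 50806, 49081 and 46789 bp away. Each of these 5 held 4 fragments, and for all of them but Slc25a39 and Plcd4 the stretch had the same 4 fragments in either replicate.

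Both replicates had to list a pair, and the stretch around a run was often longer in one of them. The median run lay in a stretch of 6 fragments in the list of replicate 1 and of 5 in that of replicate 2. Bounds were the same in both for 199 runs (18.8%). The stretch was longer in replicate 1 for 606 runs and longer in replicate 2 for 215. The Rara run of 16 fragments was part of 25 in replicate 1 and of 16 in replicate 2, and that of Ncaph2 part of 16 and 11, while Kdm6b (12), Irs1 (11) and Pgs1 (11) had the same number in both. Replicate 1 alone gave 9892 runs of 4 or more and replicate 2 alone 2919, although the list of replicate 2 held more pairs.

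**Figure D3:**
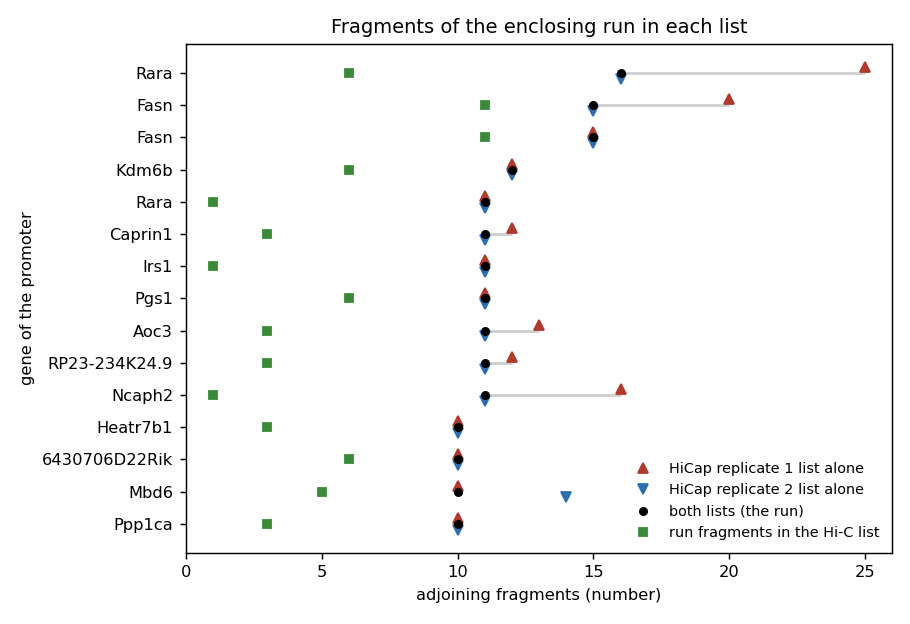
For the 15 runs with the most fragments, the number of adjoining fragments in the list of HiCap replicate 1 (red), of replicate 2 (blue) and of both (black), and the number of run fragments in the Hi-C list (green). Replicate 1 reached farthest beyond the run at Rara (25), Fasn (20) and Ncaph2 (16), replicate 2 did so only at Mbd6 (14), and Hi-C held fewer fragments than HiCap in every one.

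The fragments at which runs ended were shorter than those in runs. The 2120 bordering MboI fragments had a median of 179 bp and 45% measured 150 bp or less, against 452 bp and 10.2% for the fragments in runs and 261 bp and 34% for all MboI fragments of chromosomes 1 to 19 and X. Of the borders, 534 (50.4%) on the promoter's side and 420 (39.6%) on the far side were listed by neither replicate, and these had a median of 102 bp, with 59.4% at 150 bp or less. Most other borders had been listed by 1 replicate, on the far side 451 (42.5%) by replicate 1 and 187 (17.6%) by replicate 2. When a single missing MboI fragment was bridged, the number of runs rose to 2394, so single fragments without a call divided many longer stretches. By definition a bordering fragment was not called and a fragment in a run was, so the rule itself sets these 2 groups apart. Lengths of other uncalled fragments near the same promoters are not given, so nothing particular to the ends of runs is shown. The part of fragment length in the bounds of runs was not tested.

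Runs at different promoters overlapped at 65 of 977 loci, of which 55 joined 2 promoters, 8 joined 3, 1 joined 4 and 1 joined 5. At 50 of the 65 the promoters belonged to more than 1 gene, and 17 spans were identical at 2 or more promoters. The 5-promoter locus was the body of Fasn, which carried runs of 3 promoter fragments of Fasn itself, of Gps1, a subunit of the COP9 signalosome, 27388 bp away, and of Dus1l, a tRNA dihydrouridine synthase, 17855 bp away. The 4-promoter locus was the body of Kdm6b, with runs of 2 Kdm6b promoters, of RP23-5O23.6 and of Cyb5d1, whose edge lay 14409 bp away.

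The remaining loci named by the rule each joined 3 promoters. The body of Malat1, which encodes an abundant nuclear long noncoding RNA, carried a run of its own promoter and runs of AC142098.4 and of Neat1, the scaffold RNA of paraspeckles, at 45874 and 46789 bp (chr19:5794706-5802476). The body of Ubtf, a transcription factor of RNA polymerase I, carried runs of Ubtf (8 fragments), Atxn7l3 (5) and Slc25a39 (4). At Mbd6, runs of 10 and 8 fragments from 2 promoters of the gene overlapped one of 4 from Mars, the methionyl-tRNA synthetase, which lay in Dctn2 at 15360 bp. At the Fasn, Kdm6b, Ubtf and Mbd6 loci a promoter of the gene just named had the largest run, while at Malat1 AC142098.4 had 8 fragments and Malat1 had 4. Exons made up 72.3% and intergenic bases 27.7% of the span that Malat1 and Neat1 shared.

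Runs were spread unevenly over the genome. Chromosome 11 held 306 runs (28.9%), against 18.8% of the called pairs and 12.2% of the promoters with a call, and 10.2% of its promoters with a call had a run. The same share was 9.37% on chromosome 19, 9.24% on chromosome 8, 0.888% on chromosome 4 and 0.338% on chromosome X, where there was 1 run. Of the 1878 windows of 1 Mb with a called pair, 354 held a run, and the 10 fullest held 186 runs (17.5%). The first of these was on chromosome 11 around Fasn, Cbr2 and Arhgdia, with 34 runs at 13 promoters, and the second, with 26 runs at 11 promoters, held Rara, Igfbp4, Cdc6 and Nr1d1. In these 2 windows 14.8% and 19.6% of the called pairs lay in runs. Gnb2l1, which encodes the ribosome-associated scaffold RACK1 and was chosen after its values were seen, had 11 runs at 2 promoters, the most of any gene. Counted per promoter these runs held 52 fragments. The gene had 76 distinct called fragments, some of which lay in runs of both promoters.

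Genes with a run had many called fragments. None of the 6464 genes with 1 to 3 called distal fragments could have a run, and the share was 1.11% with 4 to 9, 10.2% with 10 to 19, 41.4% with 20 to 39 and 82.6% of the 213 genes with 40 or more. The gene lists below are therefore given beside the share over all genes with like numbers of called fragments.

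Ribosomal protein genes had runs at 14 of 71 genes, or 19.7% (11.2 to 30.9), against 5.81% of all genes and 18.9% of genes with like numbers of fragments. Counted per promoter, Rpl8 had 5 runs with 28 fragments, Rpl5 had 4 with 23 and Rpl27 had 4 with 22. The largest run of each lay outside the gene: the 9 fragments of Rpl5 were intergenic, the 8 of Rpl27 lay in Rundc1 and the 8 of Rpl8 in Zfp647. Replication-dependent histone genes, which lie in dense clusters, had runs at 8 of 37, or 21.6% (9.83 to 38.2), against 9.21% for like numbers. The largest was that of Hist1h4d with 6 fragments over the neighbouring Hist1h2be, and Hist1h1c, Hist1h1d and Hist1h1e, which encode linker histones, had 5 each. Runs of neighbouring histone genes overlapped, so the 8 genes rested on 6 loci. Histone genes are near-identical copies of each other, and their calls are uncertain to that extent.

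Of the pluripotency genes, 4 of 40 (10%, 2.79 to 23.7) had a run, against 10.6% for like numbers. Id1, an inhibitor of differentiation induced by bone morphogenetic proteins, had 3 runs, one of which held 8 intergenic fragments 5024 bp upstream. The pluripotency factor Sox2 had 1 run of 5 fragments over 4650 bp, 3433 bp downstream and within Sox2ot, Socs3, a feedback inhibitor of cytokine signalling, had 1 of 5, and Trim28, a corepressor, 1 of 6. The other 36 genes of the list with a call had none.

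Among regulators of developmental signalling, 4 of 21 had a run (19%, 5.45 to 41.9, against 14.9% for like numbers), namely Rara, Igfbp4, the Notch ligand Jag1 and Igfbp2. Fibroblast and matrix genes had 4 of 16 (25%, 7.27 to 52.4), with 8 fragments at the collagen gene Col1a1, 7 at Col1a2, 7 at the receptor gene Pdgfrb and 6 at the actin gene Acta2, and 22% for like numbers. Oxidative phosphorylation had 8 of 60 (13.3%, against 9.28% for like numbers), led by Atp5b with 5 runs. The cell cycle list had 4 of 31 (12.9%), namely Cdk2, Cdc6, Ccnd3 and Cdt1, and glycolysis 2 of 21 (9.52%), Gapdh and Eno1, both below the 14.4% and 15% of genes with like numbers. Translation factors also lay below theirs, with 4 of 49 (8.16%, against 10.9%), namely Eif4g2, Eif1, Eef1g and Eif4e2.

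Polycomb and chromatin genes had 2 of 19 (10.5%, against 4.2% for like numbers), Ezh1 and Cbx8, Hox clusters 2 of 32 (6.25%, against 4.67%), Hoxa2 and Hoxd3, and clustered protocadherins 2 of 46 (4.35%, against 4.77%). Of the lists for other cell types, trophoblast and endoderm markers had 2 of 12 (16.7%, against 7.94%), Gata2 and Gata6, and neural markers 0 of 11, which allows up to 28.5%, against 1.53%. Olfactory receptor genes had 0 of 38, which allows up to 9.25%, against 0.0585% for like numbers and with a median of 1 called fragment per gene. All list intervals but those of ribosomal proteins, histones, fibroblast and matrix genes and oxidative phosphorylation included the 5.81% of all genes, and every one included the share for like numbers except that of the histones, whose lower bound of 9.83% stood above 9.21%. These intervals take genes as independent, which the histone genes that share loci are not, so nothing is read from that margin. The lists hold contacts and not expression, so they do not test the identity of the cells.

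**Figure D4:**
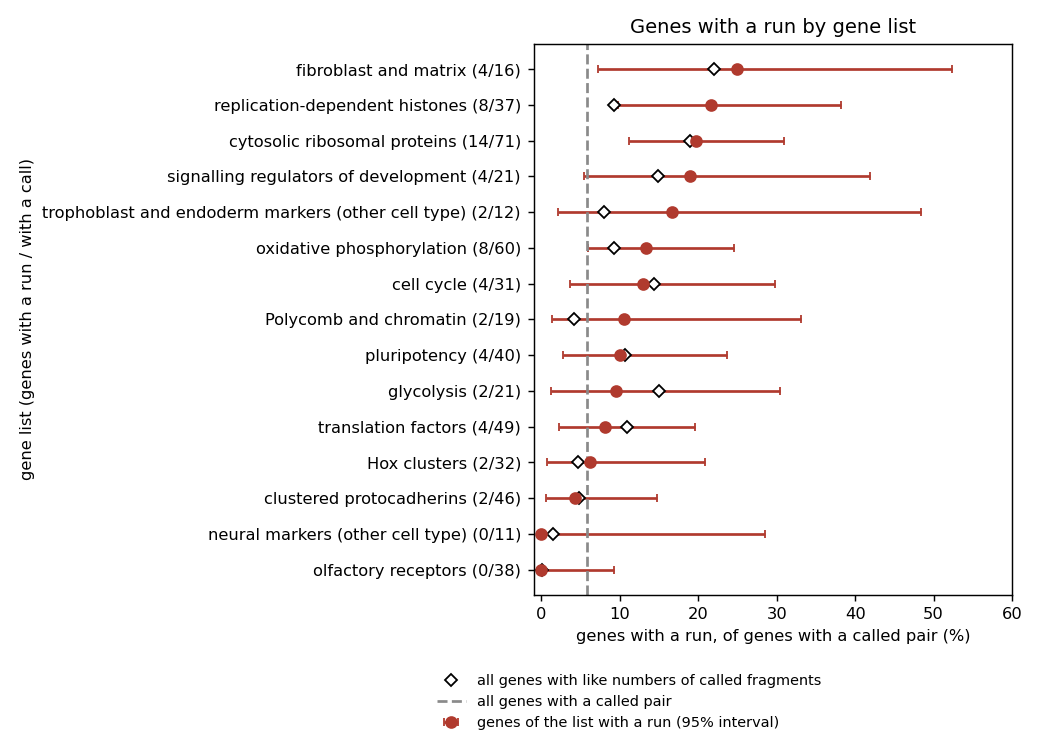
Share of genes with a run among the genes of each list with a called pair, with exact binomial 95% intervals (red), beside all genes with like numbers of called fragments (diamonds) and all genes (dashed line at 5.81%). The histone list, at 21.6%, stood farthest above its diamond, at 9.21%.

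The run fragments were richer in exons than the other called fragments. Exons made up 20.4% of the bases of fragments in runs, introns 46.7% and intergenic sequence 33%, against 11%, 51.1% and 37.9%. These shares were not matched for distance, which had a median of 5297.5 bp in runs and 10967 bp outside. The part of distance was not tested. G+C content was 48.4% in runs and 46.3% in the other called fragments. Fragments in runs were shorter, with a median of 448 bp against 577 bp. Among fragments of 400 to 800 bp, the letters TCAAGGTCA, bound by the orphan receptor Esrrb, were found on either strand in 2.59% of 1620 run fragments, in 2.02% of 24705 other called fragments and in 1.19% of all MboI fragments of this length. The octamer ATGCAAAT of POU factors, which shares no overlap with it, was found in 1.85%, 2.72% and 4.36%. The pattern of CTCF was found in 6.54%, 5.86% and 3.08%. At this length the run fragments thus differed from the other called fragments by less than both differed from the genome. Over all lengths, which were not matched, the Esrrb letters were found in 2.08% of 4803 run fragments and 2.36% of 67152 others. CTCF also changed order (6.39% and 6.5%), while the octamer did not (1.98% and 3.38%). The Esrrb share in runs rested on 42 fragments of 400 to 800 bp and has no interval, so no excess in runs is read from it. G+C was 41.8% over all MboI fragments of this length. Base composition thus moved with the shares at this length, and its part was not tested.

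The Hi-C list was not used to choose the runs and names promoters and fragments in the same way. It held 1380 of the 5161 pairs in runs, or 26.7% (95% interval 25.5 to 28), and 10442 of the 89735 called pairs outside them, or 11.6%. Hi-C named 772 of the 782 promoters with a run, and the same share over all promoters with a call is not given here. It held no fragment of 309 runs (29.2%), at least 50% of the fragments of 250 (23.6%) and all of the fragments of 3, namely those of Ech1 (5 fragments), Rn45s (4), a repeated ribosomal RNA gene whose calls are uncertain for that reason, and 0610009B22Rik (4). On its own it had 77 runs of 4 or more, and 17 of the HiCap runs (1.6%) shared a fragment with one of them. The runs of HiCap thus seldom met a run of 4 or more in Hi-C, whose list was smaller and whose depth is unknown. Like counts for shorter stretches are not given here, so these numbers of runs and promoters are not read as particular to runs. How far the Hi-C fragments within a run adjoined each other was not measured.

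The Hi-C share differed among the named runs. It was 11 of 15 fragments at both Fasn promoters, 6 of 16 at Rara, 6 of 12 at Kdm6b and 6 of 11 at Pgs1, but 1 of 11 at Irs1, Ncaph2 and the second Rara run, and 0 of 7 at Naca. The span shared by Heatr7b1 and 6430706D22Rik had 3 of its 10 fragments in Hi-C from the first promoter and 6 from the second. With the number of adjoining fragments the share went from 9.79% for single fragments to 16.5%, 20.3%, 23.9% and 27.4% for stretches of 2, 3, 4 and 5, to 28.7% for 6 or 7 and to 34% for 8 or more. From 3 fragments on, the median midpoint distance of the pairs in these classes lay between 5025.8 and 5930.5 bp, while that of single fragments was 13381 bp.

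In every distance class up to 100 kb the pairs in runs were listed by Hi-C more often than other called pairs. Up to 25 kb promoters with a run also had a higher Hi-C share outside their runs than promoters without one. From 1 to 5 kb, Hi-C held 31.3% of pairs in runs, 26% of the other pairs of the same promoters and 18.6% of the pairs of promoters without a run. From 5 to 10 kb the shares were 25%, 20.8% and 14%, and from 10 to 25 kb 18.3%, 10.9% and 8.86%. From 25 to 100 kb they were 17.5% of only 103 pairs (10.7 to 26.2), 4.86% (4.27 to 5.51) and 4.66% (4.31 to 5.03). The intervals of the last 2 overlapped. Over 100 kb, where runs had no pair, promoters with a run had 2.12% (1.4 to 3.08) and promoters without one 2.86% (2.4 to 3.37). The intervals cover counting error only, and pairs that share a fragment are not independent. Distances were not matched inside a class. Only 9 runs had their nearest edge at 40 kb or more, so the pairs compared at 25 to 100 kb may differ in distance, and the part of this was not tested.

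**Figure D5:**
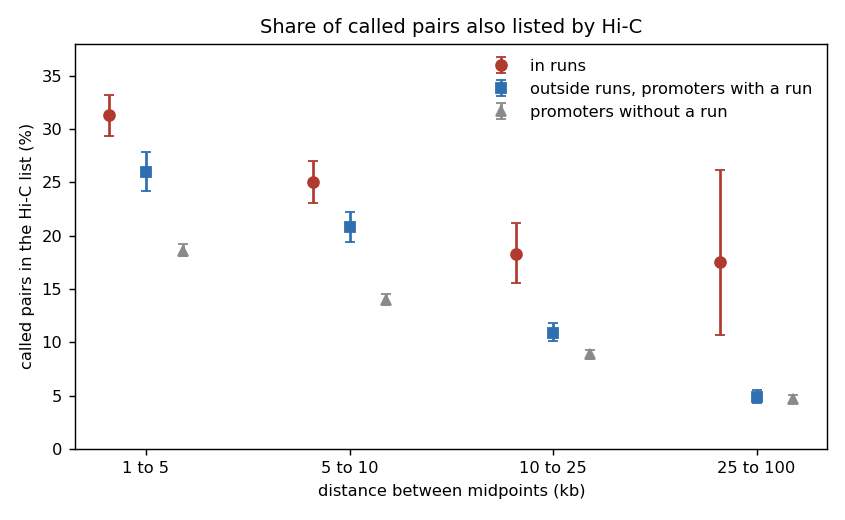
Share of called pairs that the Hi-C list also held, by distance in kb between fragment midpoints, for pairs in runs (red), other pairs of promoters with a run (blue) and pairs of promoters without a run (grey), with exact binomial 95% intervals. At 1 to 5 kb the shares were 31.3%, 26% and 18.6%, and the red points stood above the others in every class.

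Within the same promoter and distance class the difference was small. At 667 loci that had both kinds of pair in a class, with promoters of overlapping runs counted once, the mean Hi-C share was 24.1% in runs and 21.3% outside, a difference of 2.82 percentage points (SE 1.16, SD 29.9, n = 667 loci). The share was higher in runs at 317 loci, lower at 225 and equal at 125 (exact two-sided sign test, p = 8.95e-05). Where a locus has more pairs in runs than outside, or fewer, the 2 signs are not equally likely without any difference. The mean was therefore tested as well, and a two-sided permutation test that flipped the signs of the locus differences gave p = 0.0151. This test too takes each difference as symmetric when runs and other pairs do not differ, so it does not remove that limit. With runs of at least 5 fragments the sign test no longer passed (3.61 points, p = 0.0947), while the permutation test of the mean gave p = 0.0278. The Hi-C and HiCap libraries are of one line and the Hi-C replicates are pooled, so neither test speaks for the spread between cultures. The sources used here do not say whether Hi-C and HiCap came from separate cultures, so their lists may share material.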

How the data were processed

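The deposited files hold genomic positions on mm9 (unit other) and no read numbers. The authors aligned the ends of read pairs separately, discarded reads with several positions, duplicates and pairs under 1 kb apart, assigned ends to MboI fragments and required 3 read pairs. The minimum for Hi-C is not given in the sources used here. Lists of HiCap replicate 1, HiCap replicate 2, the authors' combined calls (used as an alternative) and pooled Hi-C were read. Capture-C was not analysed here.

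Samples were grouped by their titles. Distinct pairs were formed, pairs in both HiCap lists were called, and distal fragments whose start lay within 1 bp of the previous end were joined per promoter. Distance was taken between midpoints, and the distance of a run to its nearest edge. Runs were placed on the GENCODE annotation of mm9 without pseudogenes, which held 693 of the 749 genes with a run. MboI sites came from the mm9 sequence. Intervals are exact (Clopper-Pearson, 95%). Hi-C shares were compared by an exact sign test over loci (scipy 1.17.1) in classes bounded at 5, 10, 25 and 100 kb, and by a permutation test of the mean with 100000 sign flips, which was added after seeing the data. Python 3.11.15, numpy 2.4.6, pandas 2.3.3 and matplotlib 3.10.9 were used, and run finding and the test were tested on simulated data.

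Named genes are those of the 15 runs with the most fragments, of the 5 longest, the 5 farthest and the 5 with the most fragments in Hi-C, of the 5 sets of overlapping runs with the most promoters, and up to 4 members of each of 15 gene lists. The runs and the lists were chosen with earlier results of these data known. The alternatives were another least number of fragments, a bridged gap, the combined list, MboI fragments counted inside regions, promoters pooled by gene, each replicate alone, pairs over 15 kb, other distance classes, overlap in place of identity with Hi-C, promoters in place of loci, and fragments of 300 to 1200 bp.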

Additional observations from a re-analysis of the deposited data

How the results depend on the processing

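The number of runs followed the definition. With at least 3 fragments there were 2910 runs at 1768 promoters with 11.3% of the called pairs, and Hi-C held 23.4% of their pairs. With at least 5 there were 444 runs at 370 promoters, 2.84% of pairs and a Hi-C share of 29.3%. With a gap of 1 MboI fragment bridged there were 2394 runs at 1560 promoters, 13.8% of pairs and a Hi-C share of 22.9%. Among pairs over 15 kb there were 58 runs at 50 promoters, 0.785% of pairs and a Hi-C share of 14.4%. With 1 replicate left out, runs numbered 2919 to 9892 at 1868 to 4739 promoters, held 2.57 to 10.4% of the pairs and had a Hi-C share of 11.8 to 18.3%. Counting MboI fragments inside regions gave 1323 runs at 951 promoters with 6.2% of pairs, and pooling the promoters of a gene gave 5.88%. The authors' combined list gave as many runs, 1060, with a Hi-C share of 24%. The difference within promoter and distance class lay between 2.24 and 3.91 points under all alternatives run, and the exact sign test passed except with at least 5 fragments (3.61 points, p = 0.0947). Of the values under alternatives, 27 moved as given, 1 lost its call and the other 16 kept their call or stayed within 1.5 times a reported count or within the 95% interval of a reported share. Matching Hi-C by overlap returned the same values as identity. The combined list held 94831 pairs, against 94896 called pairs, so its number of runs could hardly differ. The cause of the changes was not tested beyond what the definitions themselves remove or add. No paired analysis was possible because the Hi-C list pools its replicates, so the replicate numbers shared with HiCap could not pair the lists. Read numbers would be needed to tell a fragment that was not contacted from one that missed the minimum.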
